A study of Mus musculus with 26 samples.

Results

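The 36 genes described here encode the enzymes of cholesterol synthesis and of fatty acid synthesis, desaturation and elongation, together with 3 proteins that control these genes and 1 sterol carrier. They were picked from a list of symbols, without regard to case, and all 36 were found among the 55391 gene symbols of the count table. The sterol arm held 18 genes from Acat2 to Dhcr7, the fatty acid arm held 14 genes from the supply of acetyl groups and NADPH to the elongases, and Srebf1, Srebf2, Insig1 and Stard4 were kept apart from both arms. RNA-seq had been run on 3 murine lung cancer lines carrying the Eml4-Alk fusion, EA1, EA2 and EA3, which were grown in culture with the ALK inhibitor alectinib at 100 nM or with 0.1% DMSO as the control. All 3 lines came from tumours that adenoviral delivery of Cas9 with Eml4 and Alk guides had induced in C57BL/6 mice, EA1 in a Trp53 wild-type animal and EA2 and EA3 in Trp53-null animals. Each line therefore stands for 1 tumour, and Trp53 status cannot be told apart from line. Every line and treatment was sampled once on days 1, 2, 3 and 5, which gave 24 libraries and 4 libraries in each of the 6 groups. The 4 days served as the replicates, so every test below measures the spread over days. Whether libraries of different days came from separate cultures is not given in the sources used here. Day 2 is named in the sample titles, whereas the treatment protocol lists days 1, 3, 5 and 7. A pair of libraries labelled EA3 of day 7 went against its label and was kept out of the comparisons below. Across genes, each of the 2 correlated at 0.952 to 0.989 with the EA2 libraries of its treatment. With the EA3 libraries of its treatment each correlated less closely, at 0.879 to 0.911.

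Cholesterol is built from acetyl-CoA through the mevalonate pathway, which yields isoprenoids and then squalene, and squalene is closed and trimmed to cholesterol by a second series of enzymes. Fatty acids are built from the same acetyl-CoA by carboxylation and repeated chain extension, after which desaturases and elongases shape the product. The transcription factors SREBP2 and SREBP1, encoded by Srebf2 and Srebf1, drive these genes when sterols are low, and Insig1 holds their precursors in the endoplasmic reticulum when sterols are plentiful.

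The 24 libraries held 5780062 to 11732401 counts. Levels are given as CPM, the share of its library's counts that a gene took, scaled by trimmed-mean factors, and a log2 fold change compares alectinib with DMSO of the same line and day. Genes reading out signalling below ALK fell as a set, since all 4 of Etv4, Etv5, Dusp6 and Spry4 passed the test as lower in each line. The epithelial keratin Krt18 measured 1295 to 2502 CPM over the 12 DMSO libraries, whereas Epcam measured 0.301 to 0.627 CPM in EA2 DMSO and 0.321 to 3.23 CPM in EA1 DMSO, against 75.2 to 211 CPM in EA3 DMSO, and Krt7 measured 0.1 to 0.344 CPM in EA2 DMSO. Epcam was thus nearly absent from EA2 and low in EA1, and Krt7 nearly absent from EA2. Adipocyte markers, which could carry lipid genes, summed to at most 0.494 CPM in any library.

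Alectinib lowered most of the pathway in EA2, part of it in EA3 and little of it in EA1. In EA2, 26 of the 36 genes (72.2%) passed the test as lower, against 11.3% of the 14264 genes tested, and 2 passed as higher, against 13.0%. In EA3, 11 genes (30.6%) were lower, where 15.1% of all genes were, and 1 was higher, where 17.5% were. In EA1, 2 genes (5.56%) were lower against a background of 14.6% and 4 (11.1%) were higher against 19.0%, so both shares lay below those of all genes. The median log2 fold change of the 36 genes was -0.98 in EA2, -0.40 in EA3 and -0.03 in EA1. All genes tested had a median of 0.06 in EA1 and 0.07 in EA3 and of essentially nothing in EA2. For the effect averaged over the lines, 22 genes passed as lower and 3 as higher, against 23.5% and 26.6% of all genes. Passing the test means an adjusted p below 0.05 in the quasi-likelihood F test of edgeR, adjusted by Benjamini-Hochberg over all genes tested. Without day 2 the count of lower genes fell to 13 in EA2 and 6 in EA3, where 1249 and 1389 of 14490 genes tested were lower. Without day 5 it fell to 5 in EA3, where 1523 of 14270 were. Without the pairing of libraries by day it was 16 in EA2, 3 in EA3 and 0 in EA1. Of the 14264 genes tested, 1270, 1979 and 1971 were then lower, so the EA3 and EA1 shares lay below those of all genes. Scaling by library size alone raised the median of all genes in EA3 to 0.18 and changed its split from 2493 higher and 2157 lower genes to 3060 and 1666, with 8 of the 36 genes lower. Bulk RNA cannot separate fewer cells of a kind from less RNA per cell.

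**Figure D1:**
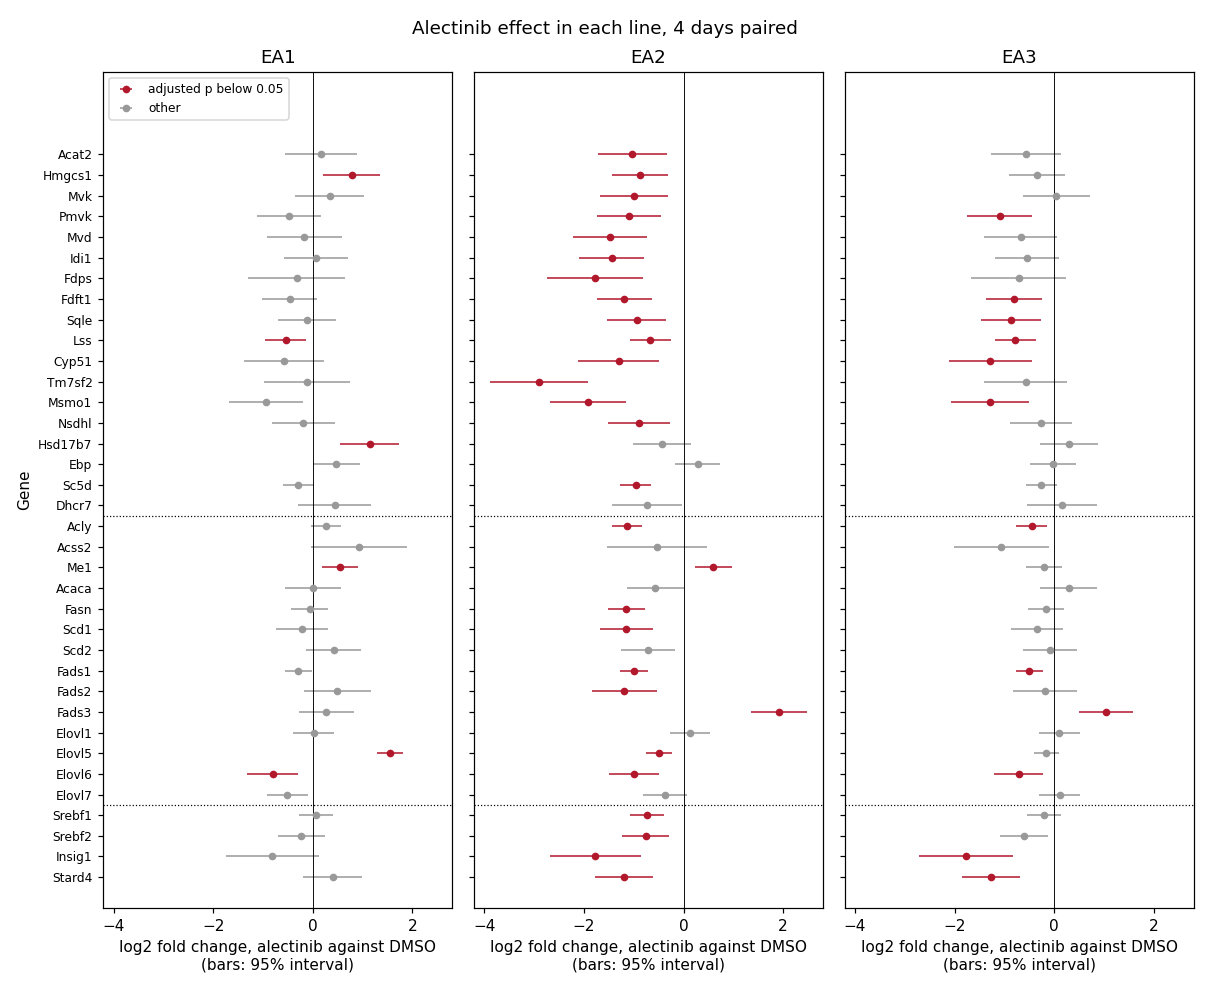
Log2 fold change of alectinib against DMSO (x axis) for each of the 36 genes (y axis) in EA1, EA2 and EA3, with 95% intervals over 4 days and genes with an adjusted p below 0.05 in red. In EA2, 26 genes lie to the left of 0 in red, against 11 in EA3 and 2 in EA1.

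The promoters of 5 genes, chosen after their values were seen, are shown here because 26 of the 36 genes were lower in EA2 and because SREBP proteins act through short promoter elements. RefSeq windows of 300 bases on GRCm38.p6, running from 250 bases before to 50 bases after a start site, matched 29 of the 36 genes. The first window is that of Hmgcs1, a gene that like Elovl5 rose in EA1 and fell in EA2, at chr13:119690101-119690400 on the plus strand. The windows of the largest falls in EA2 are Tm7sf2 at chr19:6067801-6068100 and Msmo1 at chr8:64733529-64733828, both on the minus strand. The windows of the largest rises are Fads3 at chr19:10041298-10041597 and Elovl5 at chr9:77917115-77917414, both on the plus strand. Each is written 5′ to 3′ on the strand of its gene, and capitals mark matches on either strand to the sterol regulatory element TCACNCCAC or the CCAAT box CCAAT, which reads ATTGG on the other strand and is the site of NF-Y, a partner of SREBP.
Hmgcs1: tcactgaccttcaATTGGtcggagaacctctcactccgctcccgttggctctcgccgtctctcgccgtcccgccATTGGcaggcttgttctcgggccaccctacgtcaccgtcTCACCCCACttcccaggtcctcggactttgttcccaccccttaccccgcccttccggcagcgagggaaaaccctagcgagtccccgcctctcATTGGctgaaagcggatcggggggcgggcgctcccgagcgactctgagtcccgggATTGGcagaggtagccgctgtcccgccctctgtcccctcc
Tm7sf2: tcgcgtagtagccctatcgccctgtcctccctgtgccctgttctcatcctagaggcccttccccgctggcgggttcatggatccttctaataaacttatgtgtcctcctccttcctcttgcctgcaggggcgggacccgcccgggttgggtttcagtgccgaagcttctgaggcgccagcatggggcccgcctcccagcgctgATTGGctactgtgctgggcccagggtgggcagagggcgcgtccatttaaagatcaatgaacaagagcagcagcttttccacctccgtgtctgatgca
Msmo1: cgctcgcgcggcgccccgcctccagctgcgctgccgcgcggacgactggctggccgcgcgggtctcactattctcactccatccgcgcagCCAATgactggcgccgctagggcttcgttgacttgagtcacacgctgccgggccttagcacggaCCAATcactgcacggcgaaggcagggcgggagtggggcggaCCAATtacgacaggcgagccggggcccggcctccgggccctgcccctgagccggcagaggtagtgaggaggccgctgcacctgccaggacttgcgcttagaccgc
Fads3: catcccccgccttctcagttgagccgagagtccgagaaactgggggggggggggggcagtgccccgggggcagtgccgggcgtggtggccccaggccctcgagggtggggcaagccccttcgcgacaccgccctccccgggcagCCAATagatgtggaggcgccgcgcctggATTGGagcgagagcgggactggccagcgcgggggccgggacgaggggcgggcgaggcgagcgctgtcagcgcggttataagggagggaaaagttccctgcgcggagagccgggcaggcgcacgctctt
Elovl5: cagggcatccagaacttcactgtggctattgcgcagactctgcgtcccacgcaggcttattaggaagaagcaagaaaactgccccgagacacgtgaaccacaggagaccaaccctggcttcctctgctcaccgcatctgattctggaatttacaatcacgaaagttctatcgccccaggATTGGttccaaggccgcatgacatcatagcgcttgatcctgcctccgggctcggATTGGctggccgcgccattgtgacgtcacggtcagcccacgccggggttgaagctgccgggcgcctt

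The 9-base sterol regulatory element was found only in the Hmgcs1 window among the 29 genes, where it began 137 bases before the start site, and in 1.44% of the 27025 genes with a window. A CCAAT box was present for 24 of the 29 genes (82.8%) and for 41.1% of all genes. By arm it was present for 14 of 15 sterol genes with a window and for 7 of 11 fatty acid genes. The GC box GGGCGG, not marked above, was likewise present for 24 of the 29 genes and for 38.2% of all genes. Of the CCAAT box Fads3 and Elovl5 each held 2 copies, Hmgcs1 held 4, Msmo1 held 3 and Tm7sf2 held 1. These matches describe the letters in the windows and were not tested against binding. The motifs do not overlap one another in these 5 windows.

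All 7 mevalonate enzymes, from Acat2 to Fdps, passed as lower in EA2, 1 did in EA3 (Pmvk), and in EA1 none was lower and 1 was higher. The lower shares were 100% in EA2, against 11.3% of all genes, and 14.3% in EA3, near the 15.1% of all genes. In EA1 the shares, 0% lower and 14.3% higher, lay below 14.6 and 19.0%. Hmgcs1, which condenses acetoacetyl-CoA with acetyl-CoA to HMG-CoA (chr13:119690379-119708260, plus strand), went opposite ways in EA1 and EA2. In EA1, Hmgcs1 CPM was 143, 230.1, 86.6 and 93.2 in DMSO on the 4 days and 155, 259, 286 and 201 with alectinib, a log2 fold change of 0.78 ± 0.27 (SE, adjusted p = 0.0377). Alectinib was the higher member of each pair in EA1, with the widest gaps on days 3 and 5, although the groups overlapped. In EA2, Hmgcs1 CPM was 221, 342, 132 and 350.0 in DMSO on the 4 days and 122, 134, 71.3 and 258 with alectinib, a log2 fold change of -0.88 ± 0.26 (SE, adjusted p = 0.025). In EA3, Hmgcs1 CPM was 199, 223, 215 and 139.9 in DMSO on the 4 days and 229.8, 149.8, 217 and 68.8 with alectinib, a log2 fold change of -0.34 ± 0.26 (SE, adjusted p = 0.342). All 4 EA2 pairs were lower with alectinib, whereas the EA3 pairs divided evenly between higher and lower. The EA1 call was lost without day 3, where the log2 fold change was 0.43, without day 5, where it was 0.62, and without the block for day, and the EA2 call without day 1, day 2 or day 3 in turn or without the block.

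Fdps, which makes farnesyl diphosphate (chr3:89093588-89101959, minus strand), had the largest fall of the mevalonate genes in EA2 on the log2 scale. Fdps in EA2 measured 14.1, 21.2, 14.7 and 25.3 CPM in DMSO and 6.52, 3.36, 2.82 and 11.01 CPM with alectinib, and its log2 fold change was -1.78 ± 0.45 (SE, adjusted p = 0.0107). No EA2 alectinib library reached the DMSO range. Fdps in EA1 measured 7.43, 14.5, 2.99 and 8.79 CPM in DMSO and 4.25, 9.68, 7.46 and 4.19 CPM with alectinib, and its log2 fold change was -0.33 ± 0.45 (SE, adjusted p = 0.599). Fdps in EA3 measured 14.7, 26.01, 15.6 and 10.7 CPM in DMSO and 14.8, 11.6, 18.8 and 2.16 CPM with alectinib, and its log2 fold change was -0.72 ± 0.44 (SE, adjusted p = 0.236). The ratio in EA1 was above 0 on day 3 alone, and the EA3 alectinib library of day 5 held the lowest level of that line. Fdps counts were small, down to 19 reads in a library, and 26.7% of its exon bases overlap the annotated gene Gm43738 on the same strand, so its count is uncertain. The call in EA2 was lost without day 2, where the adjusted p was 0.0763.

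The other mevalonate enzymes had log2 fold changes in EA2 between -1.48 ± 0.35 for Mvd, the diphosphomevalonate decarboxylase, and -0.99 ± 0.32 for Mvk, the mevalonate kinase. Idi1, the isopentenyl diphosphate isomerase, had -1.44 ± 0.30 (SE, adjusted p = 0.0037) and Pmvk, the phosphomevalonate kinase, -1.10 ± 0.30 (SE, adjusted p = 0.0156). Acat2, the cytosolic thiolase at the head of the pathway, had -1.03 ± 0.32 (SE, adjusted p = 0.0333), but 33.9% of its transcript stretches of 75 bases also occur in other genes, chiefly Acat3, and 23.6% of those of Idi1 do, chiefly in Gm13502. In EA3 Pmvk fell by 1.09 on the log2 scale (SE 0.30, adjusted p = 0.0145). The remaining mevalonate values of EA3 ran from -0.72 ± 0.44 for Fdps to 0.04 ± 0.31 for Mvk, none past the test.

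From squalene onward, 8 of 11 enzymes were lower in EA2, 5 in EA3 and 1 in EA1, and Hsd17b7 was higher in EA1. The lower shares were 72.7, 45.5 and 9.09%, against 11.3, 15.1 and 14.6% of all genes. In EA1 the lower share and the higher share, 9.09% against 19.0%, both lay below those of all genes. Lss, lanosterol synthase (chr10:76531588-76557138, plus strand), was the only sterol gene past the test in all 3 lines. The EA1 libraries held 90.6, 131, 92.5 and 86.9 CPM of Lss in DMSO and 54.8, 87.5, 98.4 and 44.3 CPM with alectinib, a log2 fold change of -0.55 ± 0.19 (SE, adjusted p = 0.0416). The EA2 libraries held 91.2, 128, 87.9 and 136 CPM of Lss in DMSO and 53.2, 56.2, 73.7 and 99.3 CPM with alectinib, a log2 fold change of -0.66 ± 0.19 (SE, adjusted p = 0.0221). The EA3 libraries held 115, 120.2, 184 and 63.4 CPM of Lss in DMSO and 93.9, 59.4, 106 and 31.1 CPM with alectinib, a log2 fold change of -0.78 ± 0.19 (SE, adjusted p = 0.00754). Every EA2 and EA3 pair was lower with alectinib, the EA1 pair of day 3 was the single exception, and the groups overlapped in each line. The EA1 call for Lss was lost under 6 of 13 alternatives, among them leaving out day 1, day 2 or day 5, and the EA2 call without day 1 or day 2. Without the block for day the calls in all 3 lines were lost, with log2 fold changes of -0.49 for EA1, -0.65 for EA2 and -0.73 for EA3. The highest Lss level among EA1 DMSO libraries, 131 CPM, was that of day 2.

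Cyp51, the lanosterol 14-demethylase (chr5:4081145-4104746, minus strand), was among the 3 largest falls in EA3. In EA3, Cyp51 CPM was 351, 609.5, 639.6 and 281 in DMSO on the 4 days and 343, 216, 352 and 39.4 with alectinib, a log2 fold change of -1.28 ± 0.39 (SE, adjusted p = 0.0223). The EA3 libraries started apart by little on day 1 and were furthest apart on day 5. In EA2, Cyp51 CPM was 177, 264, 159 and 229.7 in DMSO on the 4 days and 58.3, 89.3, 47.8 and 188 with alectinib, a log2 fold change of -1.30 ± 0.38 (SE, adjusted p = 0.023). In EA1, Cyp51 CPM was 184, 316, 143 and 189 in DMSO on the 4 days and 114, 166, 189 and 88.8 with alectinib, a log2 fold change of -0.58 ± 0.37 (SE, adjusted p = 0.243). In EA2 the alectinib level of day 5 lay inside the DMSO range, and in EA1 the groups overlapped. Without the EA3 pair of day 5 the EA3 log2 fold change of Cyp51 was -0.80 and did not pass. That call was lost under 6 of 13 alternatives, among them leaving out day 2 or day 5 and fitting the line alone. The EA2 call was lost without day 1, day 2 or day 3 in turn, and both calls were lost without the block for day.

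Tm7sf2, a sterol 14-reductase (chr19:6062821-6068373, minus strand), had the largest fall of the 36 genes. Tm7sf2 in EA2 measured 10.9, 12.04, 12.03 and 14.01 CPM in DMSO and 3.36, 1.41, 1.47 and 0.674 CPM with alectinib, and its log2 fold change was -2.91 ± 0.46 (SE, adjusted p = 0.000478). Every alectinib library of EA2 lay below every DMSO library, and the fall corresponds to 7.51-fold. Tm7sf2 in EA1 measured 14.02, 23.6, 3.74 and 8.79 CPM in DMSO and 8.78, 13.6, 10.2 and 7.46 CPM with alectinib, and its log2 fold change was -0.12 ± 0.40 (SE, adjusted p = 0.841). Tm7sf2 in EA3 measured 25.1, 48.98, 23.2 and 13.7 CPM in DMSO and 25.1, 16.9, 21.4 and 8.55 CPM with alectinib, and its log2 fold change was -0.58 ± 0.39 (SE, adjusted p = 0.276). The groups overlapped in both of these lines. The EA2 alectinib libraries held as few as 6 reads of Tm7sf2, and 12.1% of its exon bases overlap Vps51 on the same strand. The call stood under all 11 alternatives that kept the gene, with log2 fold changes from -3.45 to -2.51.

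Msmo1, the sterol C4-methyl oxidase (chr8:64718139-64733792, minus strand), had every alectinib library below every DMSO library in each line. The margin was small in EA1, between 148 and 150.6 CPM, and in EA3, between 167 and 169.5 CPM. The share of all genes with such separation in each line is not given here. The EA1 libraries held 150.6, 295, 197 and 207 CPM of Msmo1 in DMSO and 90.5, 137, 148 and 70.97 CPM with alectinib, a log2 fold change of -0.95 ± 0.35 (SE, adjusted p = 0.0504). The EA2 libraries held 212, 333, 249.7 and 315 CPM of Msmo1 in DMSO and 57.8, 73.7, 47.5 and 132 CPM with alectinib, a log2 fold change of -1.92 ± 0.36 (SE, adjusted p = 0.00159). The EA3 libraries held 169.5, 275, 261 and 199 CPM of Msmo1 in DMSO and 149.6, 97.5, 167 and 24.8 CPM with alectinib, a log2 fold change of -1.29 ± 0.36 (SE, adjusted p = 0.0157). All 12 pairs were lower with alectinib, though EA1 missed the threshold. In EA3 the call was lost without day 2, without the pair of day 5, without the block and with the line fitted alone, and leaving out 1 day at a time moved the value between -1.69 and -0.77. For the averaged effect Msmo1 fell by 1.39 on the log2 scale (SE 0.21, adjusted p = 8.98e-05).

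Hsd17b7, the 3-ketosteroid reductase that acts in the same demethylation complex (chr1:169949535-169969241, minus strand), ran the other way in EA1. In EA1, Hsd17b7 CPM was 25.1, 27.4, 11.9 and 16.8 in DMSO on the 4 days and 38.2, 51.7, 62.8 and 27.4 with alectinib, a log2 fold change of 1.14 ± 0.27 (SE, adjusted p = 0.00658). All 4 EA1 pairs were higher with alectinib, most on day 3, and only the alectinib library of day 5 touched the DMSO range. In EA2, Hsd17b7 CPM was 46.9, 52.8, 39.5 and 61.4 in DMSO on the 4 days and 29.4, 27.2, 30.1 and 73.4 with alectinib, a log2 fold change of -0.43 ± 0.27 (SE, adjusted p = 0.265). In EA3, Hsd17b7 CPM was 40.1, 23.8, 51.9 and 15.8 in DMSO on the 4 days and 51.6, 39.5, 58.2 and 14.5 with alectinib, a log2 fold change of 0.29 ± 0.27 (SE, adjusted p = 0.429). The pairs of EA2 and EA3 did not all go one way. Without day 3 the EA1 log2 fold change was 0.71 and its adjusted p 0.0639.

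Among the other enzymes of this stretch, Sc5d, the lathosterol desaturase, had the smallest p of the sterol genes in EA2, with -0.96 ± 0.14 (SE, adjusted p = 0.000342), and values of -0.29 ± 0.14 in EA1 and -0.26 ± 0.14 in EA3. Sqle, squalene epoxidase, fell in EA2 (-0.94 ± 0.27 SE, adjusted p = 0.023) and in EA3 (-0.87 ± 0.28 SE, adjusted p = 0.0285). Fdft1, squalene synthase, fell in EA2 (-1.19 ± 0.26 SE, adjusted p = 0.00451) and EA3 (-0.81 ± 0.26 SE, adjusted p = 0.0304), with 18.3% of its exon bases overlapping Ctsb on the other strand. Nsdhl, the sterol C4-decarboxylase, fell in EA2 (-0.90 ± 0.29 SE, adjusted p = 0.0365). Ebp, the sterol isomerase, and Dhcr7, which makes the last reduction to cholesterol, passed in no line, with values from -0.74 ± 0.33 for Dhcr7 in EA2 to 0.47 ± 0.22 for Ebp in EA1. Ebp was the only sterol gene with a value above 0 in EA2, at 0.29 ± 0.21.

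**Figure D2:**
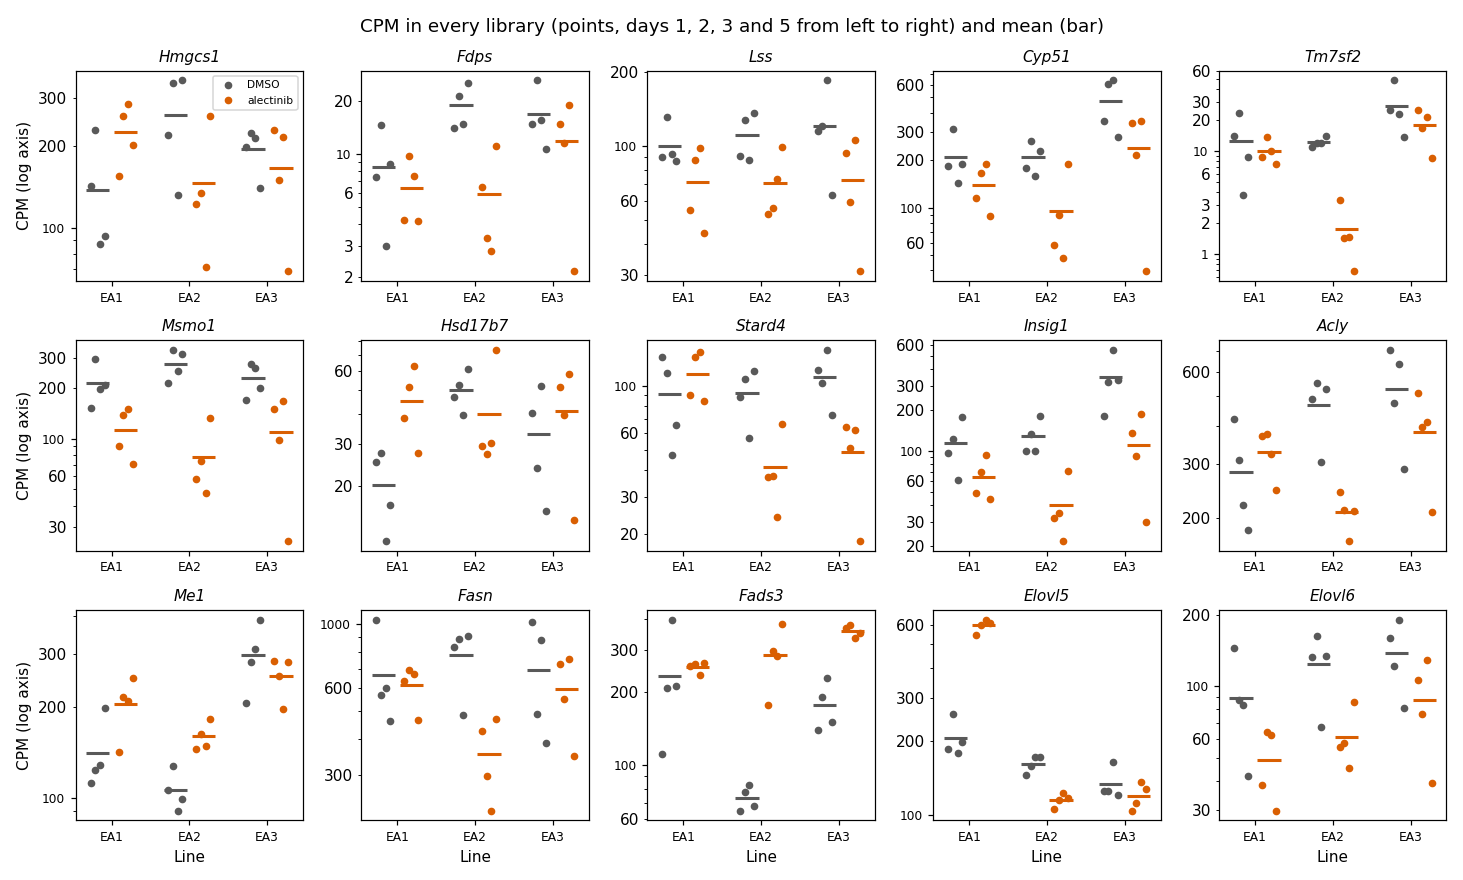
CPM on a log axis (y axis) of 15 genes in every library of EA1, EA2 and EA3 (x axis), DMSO in grey and alectinib in orange, with points for days 1, 2, 3 and 5 from left to right and a bar at the mean. Msmo1 is lower with alectinib without overlap in each line, Fads3 is higher in EA2 and EA3, and Elovl5 is higher in EA1 and lower in EA2.

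All 3 regulators and the carrier fell in EA2, Insig1 and Stard4 in EA3 as well, and none passed in EA1. Of these 4 genes, 100, 50 and 0% were lower in EA2, EA3 and EA1, against 11.3, 15.1 and 14.6% of all genes. Insig1, itself a target of SREBP (chr5:28071363-28078662, plus strand), was the largest fall in EA3. Insig1 in EA2 measured 99.7, 134, 100.0 and 180.3 CPM in DMSO and 32.4, 35.00, 21.8 and 70.6 CPM with alectinib, and its log2 fold change was -1.77 ± 0.42 (SE, adjusted p = 0.00841). Insig1 in EA3 measured 180.3, 319, 549 and 332 CPM in DMSO and 135, 91.7, 187 and 30.3 CPM with alectinib, and its log2 fold change was -1.78 ± 0.44 (SE, adjusted p = 0.00796). In EA2 the groups were separate, and in EA3 the alectinib library of day 5 lay far below the others while that of day 3 lay just inside the DMSO range. Insig1 in EA1 measured 96.2, 123, 61.6 and 178 CPM in DMSO and 48.7, 69.6, 93.7 and 44.2 CPM with alectinib, and its log2 fold change was -0.81 ± 0.43 (SE, adjusted p = 0.159). The EA1 pair of day 3 was higher with alectinib and the other 3 pairs were lower. The EA2 call was lost without day 2, at an adjusted p of 0.0506. The EA3 call was lost with all 26 libraries, at an adjusted p of 0.0647.

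Stard4, a soluble carrier that moves cholesterol between membranes, fell in EA2 and EA3 and did not pass in EA1. The EA1 libraries held 136, 115, 47.03 and 65.7 CPM of Stard4 in DMSO and 90.2, 136, 144 and 84.96 CPM with alectinib, a log2 fold change of 0.40 ± 0.27 (SE, adjusted p = 0.277). The EA2 libraries held 88.03, 107, 56.6 and 118 CPM of Stard4 in DMSO and 37.3, 37.8, 24.1 and 65.97 CPM with alectinib, a log2 fold change of -1.20 ± 0.27 (SE, adjusted p = 0.00587). The EA3 libraries held 119, 103, 147 and 72.8 CPM of Stard4 in DMSO and 63.8, 51.1, 61.8 and 18.6 CPM with alectinib, a log2 fold change of -1.27 ± 0.27 (SE, adjusted p = 0.00344). EA3 alectinib libraries all lay below the DMSO libraries, and in EA2 only the alectinib library of day 5 overlapped. Both calls stood under every alternative, 12 in EA2 and 13 in EA3. Srebf2 fell in EA2 (-0.76 ± 0.22 SE, adjusted p = 0.0227) and had -0.61 ± 0.23 (SE, adjusted p = 0.0535) in EA3 and -0.23 ± 0.22 (SE, adjusted p = 0.435) in EA1. Srebf1 fell in EA2 alone (-0.74 ± 0.16 SE, adjusted p = 0.00433), with 0.07 ± 0.16 in EA1 and -0.21 ± 0.16 in EA3.

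In the fatty acid arm, 7 of 14 genes were lower and 2 higher in EA2, 3 lower and 1 higher in EA3, and 1 lower and 2 higher in EA1. The 50% lower in EA2 compare with 11.3% of all genes, whereas 21.4% lower in EA3 was near 15.1%, and in EA1 7.14% lower and 14.3% higher lay below 14.6% and 19.0%. Acly, which splits citrate to cytosolic acetyl-CoA and so feeds both arms (chr11:100476353-100528000, minus strand), fell in EA2 and EA3. In EA2, Acly CPM was 489, 551, 304 and 526 in DMSO on the 4 days and 243, 213, 168 and 211 with alectinib, a log2 fold change of -1.14 ± 0.14 (SE, adjusted p = 8.78e-05). In EA2 every alectinib library lay below every DMSO library. In EA3, Acly CPM was 707, 476, 636 and 288 in DMSO on the 4 days and 512, 397, 411 and 208 with alectinib, a log2 fold change of -0.46 ± 0.14 (SE, adjusted p = 0.0242). In EA1, Acly CPM was 420.3, 308, 219.5 and 183 in DMSO on the 4 days and 369.8, 375, 322 and 246 with alectinib, a log2 fold change of 0.27 ± 0.14 (SE, adjusted p = 0.154). All 4 EA3 pairs were lower with overlapping groups, and 3 of the 4 EA1 pairs were higher. The EA2 call stood under all 12 alternatives, with values from -1.24 to -1.07, whereas the EA3 call was lost under 8 of 13, among them leaving out day 1, day 3 or day 5.

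Me1, malic enzyme, which supplies NADPH for chain synthesis (chr9:86581371-86695953, minus strand), rose in EA1 and EA2. Me1 in EA1 measured 112, 123, 128 and 198 CPM in DMSO and 142, 216, 210.0 and 249.9 CPM with alectinib, and its log2 fold change was 0.55 ± 0.17 (SE, adjusted p = 0.0246). Me1 in EA2 measured 106, 128, 90.4 and 99.2 CPM in DMSO and 145, 163, 149 and 182 CPM with alectinib, and its log2 fold change was 0.60 ± 0.17 (SE, adjusted p = 0.0204). Me1 in EA3 measured 207, 282, 313 and 390.3 CPM in DMSO and 284, 254, 198 and 281 CPM with alectinib, and its log2 fold change was -0.21 ± 0.17 (SE, adjusted p = 0.375). All 4 pairs were higher in EA1 and in EA2, without overlap in EA2, and 1 of the 4 was higher in EA3. Both calls were lost without day 3 or day 5 in turn, and that in EA1 without day 2 as well, and 20% of the Me1 transcript stretches of 75 bases occur in other genes, chiefly Gm7049. Acss2, which makes acetyl-CoA from acetate, passed in no line, with values of 0.92 ± 0.45, -0.53 ± 0.46 and -1.07 ± 0.44 in EA1, EA2 and EA3.

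Fasn, the fatty acid synthase (chr11:120805846-120824547, minus strand), fell in EA2 alone. The EA2 libraries held 834, 889.8, 485 and 908 CPM of Fasn in DMSO and 425, 298, 226 and 468 CPM with alectinib, a log2 fold change of -1.15 ± 0.17 (SE, adjusted p = 0.000366). The EA2 groups were separate by a small margin, between 468 and 485 CPM. The EA1 libraries held 1037, 570.0, 600.2 and 462 CPM of Fasn in DMSO and 635, 692, 673 and 464 CPM with alectinib, a log2 fold change of -0.06 ± 0.17 (SE, adjusted p = 0.808). The EA3 libraries held 1015, 489, 885 and 386 CPM of Fasn in DMSO and 729, 552, 760.5 and 349 CPM with alectinib, a log2 fold change of -0.17 ± 0.17 (SE, adjusted p = 0.486). Both of these groups overlapped widely. The EA2 call stood under all 12 alternatives. Acaca, acetyl-CoA carboxylase, passed in no line, with -0.57 ± 0.27 (SE, adjusted p = 0.138) in EA2, and 26.8% of its transcript stretches of 75 bases occur in other genes, chiefly Gm5182.

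The desaturases did not move as a unit. Fads3, a member of the fatty acid desaturase cluster (chr19:10041569-10060110, plus strand), rose in EA2, where its neighbours Fads1 and Fads2 fell, and in EA3. In EA2, Fads3 CPM was 64.8, 77.1, 83.00 and 67.8 in DMSO on the 4 days and 178, 296, 283 and 384 with alectinib, a log2 fold change of 1.92 ± 0.26 (SE, adjusted p = 0.000163). In EA3, Fads3 CPM was 139.8, 191, 229 and 150.3 in DMSO on the 4 days and 370.2, 379.9, 335 and 350.5 with alectinib, a log2 fold change of 1.04 ± 0.25 (SE, adjusted p = 0.00712). In both lines the lowest alectinib library lay above the highest DMSO library, a 3.77-fold rise in EA2 and a 2.06-fold rise in EA3. In EA1, Fads3 CPM was 111, 208, 399 and 213 in DMSO on the 4 days and 258, 261, 236.3 and 263 with alectinib, a log2 fold change of 0.27 ± 0.26 (SE, adjusted p = 0.428). The EA1 alectinib libraries stayed within 236.3 to 263 CPM while the DMSO libraries ranged from 111 to 399 CPM. The EA2 call stood under all 12 alternatives, and the EA3 call was lost only without day 2, at an adjusted p of 0.0552. Fads1, the delta-5 desaturase, fell in EA2 (-0.99 ± 0.13 SE, adjusted p = 0.000103) and EA3 (-0.50 ± 0.13 SE, adjusted p = 0.0084), and Fads2, the delta-6 desaturase, in EA2 (-1.19 ± 0.30 SE, adjusted p = 0.0114). Scd1, a stearoyl-CoA desaturase, fell in EA2 (-1.15 ± 0.24 SE, adjusted p = 0.00397), and its relative Scd2 had -0.71 ± 0.26 (SE, adjusted p = 0.0577) there. No desaturase passed in EA1.

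Elovl5, which extends polyunsaturated chains (chr9:77917364-77984519, plus strand), had the strongest evidence of the 36 genes for a rise. Elovl5 in EA1 measured 187, 259.6, 179.8 and 199.7 CPM in DMSO and 546, 599.8, 629 and 607 CPM with alectinib, and its log2 fold change was 1.54 ± 0.12 (SE, adjusted p = 4.51e-06). The EA1 groups were far apart, a 2.91-fold rise. Elovl5 in EA2 measured 146, 159, 172 and 173 CPM in DMSO and 106, 115, 123 and 118 CPM with alectinib, and its log2 fold change was -0.49 ± 0.12 (SE, adjusted p = 0.00854). Elovl5 in EA3 measured 126, 125, 165 and 121 CPM in DMSO and 104, 112, 136 and 128 CPM with alectinib, and its log2 fold change was -0.16 ± 0.12 (SE, adjusted p = 0.334). The EA2 groups were also separate, in the opposite direction, and the EA3 groups overlapped. The EA1 call stood under all 13 alternatives with values from 1.42 to 1.63. The EA2 call was lost under 1 of 12, that without the filter on low counts, at an adjusted p of 0.0829.

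Elovl6, which extends saturated chains from palmitate (chr3:129532355-129638495, plus strand), was the only fatty acid gene past the test in all 3 lines. The EA1 libraries held 145, 87.3, 83.3 and 42.01 CPM of Elovl6 in DMSO and 38.5, 64.05, 62.3 and 29.9 CPM with alectinib, a log2 fold change of -0.81 ± 0.24 (SE, adjusted p = 0.0181). The EA2 libraries held 133, 162, 67.5 and 134 CPM of Elovl6 in DMSO and 55.6, 57.4, 45.2 and 85.4 CPM with alectinib, a log2 fold change of -0.99 ± 0.23 (SE, adjusted p = 0.007). The EA3 libraries held 159.5, 121, 190.4 and 81.2 CPM of Elovl6 in DMSO and 107, 76.3, 129 and 39.3 CPM with alectinib, a log2 fold change of -0.71 ± 0.23 (SE, adjusted p = 0.0297). All 12 pairs were lower with alectinib, yet the groups overlapped in every line. The EA1 call was lost without day 1, where the log2 fold change was -0.45, the EA2 call without day 2 and the EA3 call without day 2, day 3 or day 5 or with scaling by library size alone. Without the block for day the calls in all 3 lines were lost, with log2 fold changes of -0.88 for EA1, -1.03 for EA2 and -0.65 for EA3. Elovl1 and Elovl7, the other elongases measured, passed in no line and had values from -0.52 ± 0.19 for Elovl7 in EA1 to 0.13 ± 0.19 for Elovl1 in EA2.

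**Figure D3:**
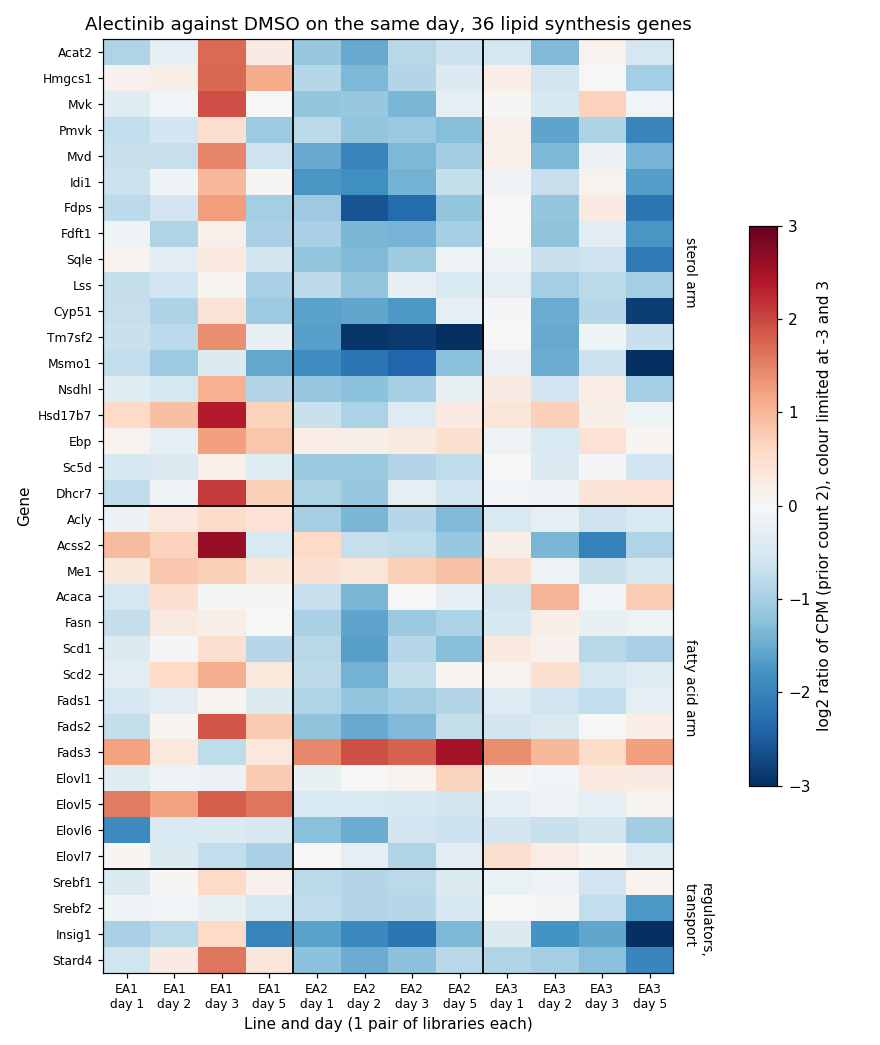
Log2 ratio of alectinib to DMSO on the same day (colour, limited at -3 and 3) for the 36 genes (rows) in the 12 pairs of libraries (columns), with the sterol arm, the fatty acid arm and the regulators and carrier divided by lines. The EA2 columns are blue over most rows, the EA1 column of day 3 is red over 17 of the 18 sterol rows, and Fads3 in EA2 and EA3 and Elovl5 in EA1 stand out in red.

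Set side by side, the sterol arm fell further than the fatty acid arm in EA2 and EA3 by the count of genes and by the median. In EA2, 15 of 18 sterol genes and 7 of 14 fatty acid genes were lower, 83.3 and 50% against 11.3% of all genes, with median log2 fold changes of -1.01 and -0.64. In EA3, 6 of 18 and 3 of 14 were lower, 33.3 and 21.4% against 15.1% of all genes, the fatty acid share being near that background, with medians of -0.57 and -0.17. In EA1 the medians were -0.15 and 0.14. These medians are descriptions over genes that share libraries. Averaged over the 4 days, the daily median ratio was -1.04 ± 0.31 (SD, n = 4 days) for the sterol arm and -0.83 ± 0.29 for the fatty acid arm in EA2, -0.48 ± 0.54 and -0.25 ± 0.13 in EA3, and -0.12 ± 0.84 and 0.11 ± 0.31 in EA1. In each line the arms differed by less than the spread of the sterol arm over days. That spread is of 1 arm alone and leaves unused that both arms were read from the same libraries. The daily differences are given below and were not tested.

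The sign of the difference between the arms changed with day in EA1 and EA3 and not in EA2. The sterol median minus the fatty acid median was -0.39, -0.07, -0.35 and -0.0018 on the 4 days in EA2. In EA3 it was 0.16, -0.74, 0.37 and -0.69, and in EA1 it was -0.31, -0.76, 0.82 and -0.65. The sterol arm was thus the lower of the arms on all 4 days in EA2, on days 2 and 5 in EA3, and on all days but day 3 in EA1. On day 3 in EA1 the sterol median ratio was 1.14 and 17 of 18 genes were above 0, while on the other days it was -0.66, -0.48 and -0.47.

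**Figure D4:**
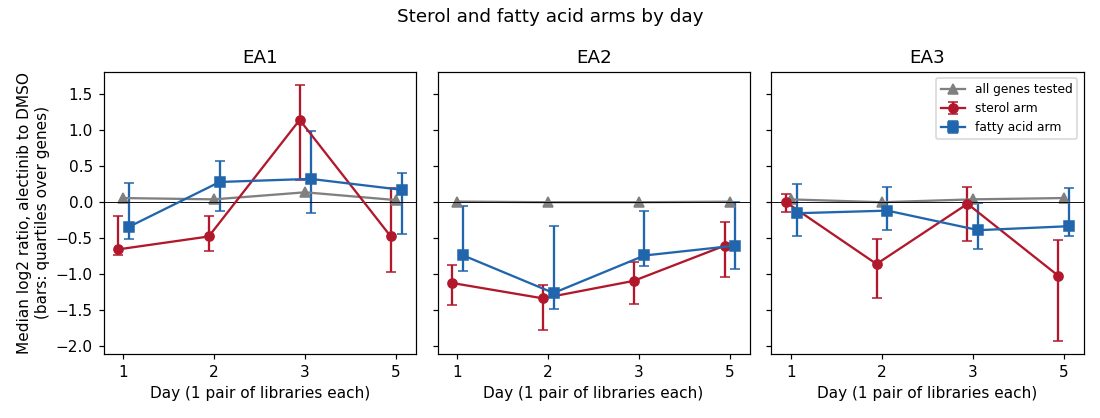
Median log2 ratio of alectinib to DMSO (y axis) by day (x axis, 1 pair of libraries each) for the sterol arm (red), the fatty acid arm (blue) and all genes tested (grey) in EA1, EA2 and EA3, with bars for the quartiles over genes. The sterol arm lies below 0 on all 4 days in EA2, reaches 1.14 on day 3 in EA1, and alternates between values near 0 and -0.86 or -1.02 in EA3.

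The mean level of each arm was also taken in single libraries. In EA1 the DMSO library of day 3 had the lowest mean log2 CPM of the sterol arm, 0.75 below the mean of the line, and the DMSO library of day 2 the highest, 0.74 above it. Both libraries enter the EA1 pairs, and without the EA1 pair of day 3 there were 3 lower and 2 higher genes in EA1 instead of 2 and 4. In EA3 the alectinib library of day 5 lay 1.60 below the mean of the line and the DMSO library of the same day 0.41 below it. Without the EA3 pair of day 5, 4 genes were lower in EA3 instead of 11. In EA2 the alectinib libraries lay 0.69, 0.59 and 1.03 below the mean of the line on days 1, 2 and 3 and 0.06 above it on day 5, and the 4 DMSO libraries lay 0.15 to 0.87 above it. The fatty acid arm moved less, between -0.51 and 0.51 relative to the line over all 24 libraries.

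**Figure D5:**
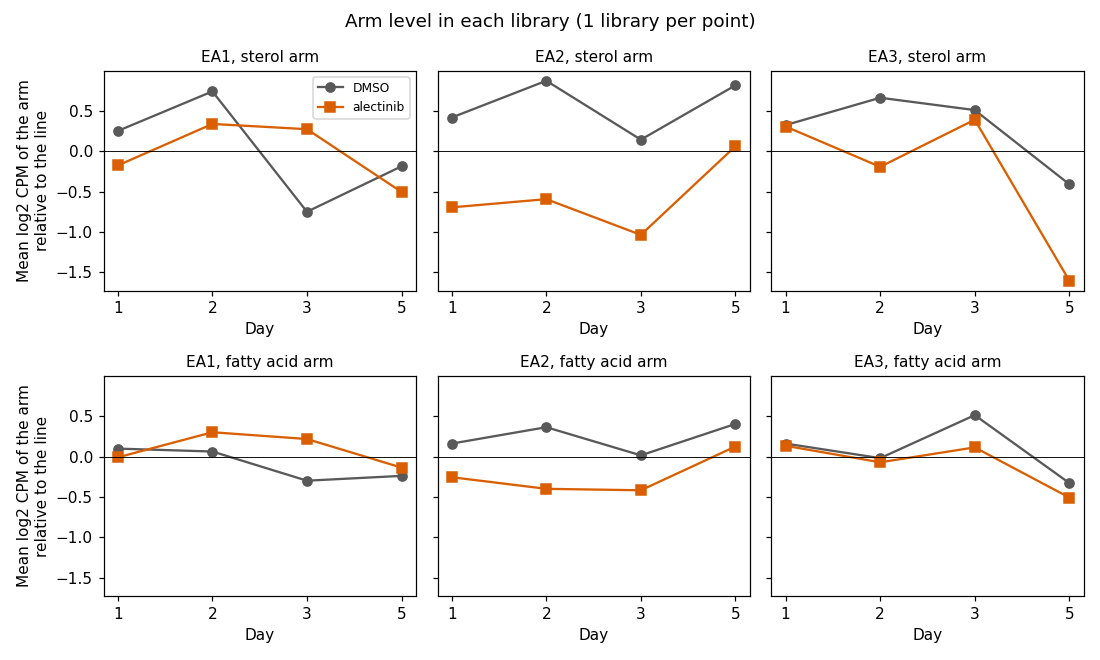
Mean log2 CPM of the sterol arm (upper row) and the fatty acid arm (lower row) relative to the mean of the line (y axis) by day (x axis), 1 library per point, DMSO in grey and alectinib in orange. The EA1 DMSO library of day 3 lies at -0.75 and the EA3 alectinib library of day 5 at -1.60 in the sterol arm.

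The alectinib effect itself was compared between the lines with an interaction test. It differed between lines for 7 of the 36 genes, against 6.84% of all genes tested: Hmgcs1, Tm7sf2, Acly, Fasn, Fads3, Elovl5 and Stard4. Elovl5 had the smallest adjusted p (8.40e-05), and its effect in EA2 minus that in EA1 was -2.03 (95% interval -2.40 to -1.67, adjusted p = 6.16e-05) and EA3 minus EA1 was -1.70 (95% interval -2.06 to -1.33, adjusted p = 0.00041). For Acly (adjusted p = 0.00359) EA2 minus EA1 was -1.41 (95% interval -1.84 to -0.98, adjusted p = 0.00171). For Fasn (adjusted p = 0.0254) EA2 differed from both of the other lines, with EA2 minus EA1 at -1.09 (95% interval -1.62 to -0.56, adjusted p = 0.0198) and EA3 minus EA2 at 0.98 (95% interval 0.46 to 1.51, adjusted p = 0.0472). Tm7sf2 (adjusted p = 0.0265) had a lower effect in EA2, with EA2 minus EA1 at -2.79 (95% interval -4.09 to -1.48, adjusted p = 0.0171).

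Stard4 (adjusted p = 0.0267) differed from EA1 in both other lines, with EA2 minus EA1 at -1.60 (95% interval -2.43 to -0.77, adjusted p = 0.0279) and EA3 minus EA1 at -1.67 (95% interval -2.50 to -0.84, adjusted p = 0.0471). Hmgcs1 (adjusted p = 0.0368) had a lower effect in EA2, with EA2 minus EA1 at -1.66 (95% interval -2.46 to -0.86, adjusted p = 0.0201). Fads3 (adjusted p = 0.0366) had the reverse order, with EA2 minus EA1 at 1.64 (95% interval 0.86 to 2.42, adjusted p = 0.0182). The comparisons of EA2 with EA1 and of EA3 with EA1 share the EA1 libraries. For Lss and Elovl6, lower in all 3 lines, EA2 minus EA1 was -0.12 (95% interval -0.70 to 0.47, adjusted p = 0.837) and -0.19 (95% interval -0.89 to 0.52, adjusted p = 0.772). The count of 7 was 2 without the block for day, fell to 2 without day 2 or without day 3 and to 1 without day 5, and rose to 15 with DESeq2.

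No gene of the 36 passed a test for a change of the alectinib effect with time in any line. The background was also close to none, with 0.0210% of EA1 genes, 0.00% of EA2 genes and 0.0491% of EA3 genes called. At an unadjusted p below 0.05 the counts were 6, 2 and 10 of 36 genes, and the smallest adjusted p was 0.114, in EA3. DESeq2 called 5 genes, each with a slope below 0 in EA3: Sqle, Cyp51, Msmo1, Srebf2 and Insig1, with slopes per doubling of days of -0.79, -1.07, -1.05, -0.76 and -1.21. The shares of all genes above are those of edgeR, and the share that DESeq2 called is not given here. In the sterol arm the EA3 alectinib library of day 5, the last day, lay 1.60 below the mean of the line. DESeq2 was not rerun without that day. Over days in DMSO alone no member passed, with 1.83% of EA1 genes, 0.00% of EA2 genes and 6.10% of EA3 genes called, and 9, 0 and 7 members at an unadjusted p below 0.05. Over days in alectinib alone none passed either, with 0.00% of EA1 genes, 0.0593% of EA2 genes and 0.549% of EA3 genes called, and 2, 3 and 8 members at an unadjusted p below 0.05.

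Without drug, 20 of the 36 genes differed in level between the lines, close to the 55.6% of all genes tested in DMSO. By arm these were 11 of 18 sterol genes, 8 of 14 fatty acid genes and Insig1. The strongest was Elovl7, with mean CPM of 68.4 ± 6.46 (SD, n = 4) for EA1, 12.3 ± 1.76 for EA2 and 31.5 ± 2.89 for EA3 (adjusted p = 8.89e-07). Me1 was higher in EA3, at 298 ± 76.1 CPM, than in EA1 (140.4 ± 39.0) or EA2 (106 ± 15.9), with an adjusted p of 9.24e-05. Cyp51 and Insig1 were each higher in EA3, by 1.19 and 1.47 on the log2 scale against EA2. Fads3, the gene with the largest rise in EA2, had its lowest DMSO level there, 1.59 on the log2 scale below EA1 (SE 0.22, adjusted p = 0.000114). Without day 2 the count of 20 fell to 9.

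Levels were compared between genes per kilobase of annotated exon in DMSO. Scd2 was first in each line, at 344 ± 101 CPM per kb (SD, n = 4) for EA1, 224 ± 67.3 for EA2 and 463 ± 144 for EA3. The gene next after Scd2 differed from the one behind it by less than its SD over days in every line. These SDs leave unused that the genes share libraries, so a gap within them does not show equal levels. Scd1 in EA1 at 75.3 ± 11.0 did not differ beyond its spread from Srebf2 at 67.6 ± 4.36, Acly in EA2 at 88.6 ± 21.3 did not from Scd1 at 86.3 ± 18.6, and Scd1 in EA3 at 127 ± 49.7 did not from Insig1 at 112 ± 49.2. Among sterol genes Cyp51 in EA1 at 47.1 ± 17.0 did not differ beyond its spread from Msmo1 at 34.5 ± 9.79, nor did Hmgcs1 in EA2 at 56.8 ± 22.8 from Cyp51 at 47.0 ± 10.9. In EA3 Cyp51 was first at 107 ± 40.9 and Pmvk next at 49.9 ± 21.6, which did not differ beyond its spread from Mvd at 46.4 ± 16.3. Fdps, Tm7sf2 and Acss2 were among the 5 lowest in every line, at 0.923 to 6.30 CPM per kb.

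Genes around the pathway were counted from lists of their own. Of 25 genes of sterol uptake, sensing, export and storage, 6 were lower and 5 higher in EA1, 6 lower and 1 higher in EA2, and 7 lower and 1 higher in EA3. These were 24, 24 and 28% lower, against 14.6, 11.3 and 15.1% of all genes, and 20, 4 and 4% higher, against 19.0, 13.0 and 17.5%. Soat1, which esterifies cholesterol, fell in all 3 lines by 1.11, 0.79 and 0.69 on the log2 scale in EA1, EA2 and EA3. Lbr, a nuclear envelope protein with the same sterol 14-reductase activity as Tm7sf2, had log2 fold changes of -1.53 ± 0.17 (SE, adjusted p = 3.65e-05) for EA1, -0.95 ± 0.17 (SE, adjusted p = 0.00115) for EA2 and -1.24 ± 0.17 (SE, adjusted p = 0.000173) for EA3, unlike Tm7sf2, which passed in EA2 alone. Of 28 tested genes that activate fatty acids, partner the elongases or build glycerolipids, 3 were lower and 6 higher in EA1, 4 lower and 3 higher in EA2, and 7 lower and 1 higher in EA3. The shares in EA1, 10.7% lower and 21.4% higher, and in EA2, 14.3% and 10.7%, were near those of all genes, and in EA3 they were 25% and 3.57%. Acsl5, an acyl-CoA synthetase, and Hsd17b12, the ketoreductase that works with the elongases, fell in all 3 lines.

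Of 11 tested genes of fatty acid breakdown, 9 were higher and 0 lower in EA1, 6 higher and 0 lower in EA2, and 7 higher and 1 lower in EA3. Those higher were 81.8, 54.5 and 63.6%, against 19.0, 13.0 and 17.5% of all genes. Cpt1a, which carries fatty acids into mitochondria, had log2 fold changes of 1.50 ± 0.30 (SE, adjusted p = 0.0023) for EA1, 2.52 ± 0.31 (SE, adjusted p = 7.67e-05) for EA2 and 1.67 ± 0.31 (SE, adjusted p = 0.00124) for EA3. Acadvl, the very long chain acyl-CoA dehydrogenase, and Mlycd, which removes the malonyl-CoA that Acaca makes, rose in all 3 lines, Acadvl by 1.03 and Mlycd by 1.26 on the log2 scale in EA2.

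Other lists moved with alectinib beside the 36 genes. Of the 6 epithelial markers, Krt18 fell in every line without overlap, from 1335 to 2502 CPM in DMSO to 490.0 to 1089 with alectinib in EA1, from 1295 to 2003 to 238 to 609 in EA2, and from 1403 to 1911 to 440.2 to 1033 in EA3. Krt8 fell in EA2 from 215 to 295 CPM in DMSO to 10.3 to 72.3, whereas Krt7 rose in EA2, Epcam in EA1, and Cdh1 in EA2 and EA3. The sum of the 6 was 4676 to 9311 CPM in EA1 DMSO and 3284 to 5420.3 with alectinib, 1811 to 2695 and 568 to 1171 in EA2, and 5239 to 7706 and 3466 to 8031 in EA3, so that EA2 alone had no overlap. Of 12 proliferation genes, EA1 had 7 lower, EA2 had 3 and EA3 had 4, with none higher. These are 58.3, 25 and 33.3%, against 14.6, 11.3 and 15.1% of all genes. Their mean daily median log2 ratio was -0.84 ± 0.76 (SD, n = 4 days) in EA1, -0.83 ± 0.68 in EA2 and -0.81 ± 0.60 in EA3. Their summed level ran from 1252 to 4413 CPM in EA1 DMSO and 1038 to 1654 with alectinib, 2567 to 4056 and 838 to 2764 in EA2, and 1132 to 4269.6 and 758 to 1491 in EA3. Of 6 tested fibroblast genes, EA1 had 5 higher, EA2 had 3 and EA3 had 5, or 83.3, 50 and 83.3% against 19.0, 13.0 and 17.5% of all genes. Their summed level was 9.08 to 44.1 CPM in EA1 DMSO and 126 to 474 with alectinib, 58.5 to 71.5 and 122 to 239.9 in EA2, and 10.2 to 20.2 and 84.8 to 274 in EA3, with Pdgfrb at 0 in all 4 EA3 DMSO libraries and Col1a2 at 0 in all 4 EA1 DMSO libraries. Of 3 endothelial markers, Pecam1 fell in EA2, and the sum of the 3 was 1.97 to 5.71 CPM in EA2 DMSO and 0.177 to 0.902 with alectinib, with overlapping ranges in EA1 and EA3. The only immune marker tested, Cd68, passed in no line, and the sum of the 4 immune markers was 5.2 to 92.1 CPM in EA3 DMSO and 6.71 to 21.3 with alectinib. The part of these lists in the values above was not tested.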

How the data were processed

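The deposited table held raw counts per gene symbol for 26 libraries of poly(A)-selected RNA from a stranded kit. The authors had trimmed reads with bbduk, mapped them to mm10 with STAR and counted them with its internal counter. Tool versions, the annotation release and the strand setting of the counter are not given in the sources used here. Symbols that a spreadsheet had turned into dates, 24 of 55415, held 0.129 to 0.201% of counts and were left out.

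The 2 libraries labelled EA3 of day 7 entered only one alternative, which left 24 libraries of 5780062 to 11732401 counts. Fits to the counts used edgeR 4.0.16 under R 4.3.3 (TMM factors, filterByExpr, robust quasi-likelihood fits, Benjamini-Hochberg adjustment, threshold 0.05) with a block for each of 12 line and day pairs. CPM was scaled by TMM factors, and log2 CPM used a prior count of 2. Slopes were fitted per doubling of days, and DMSO and alectinib libraries were also fitted apart. The pairing comes from the day in the labels. Deviations of same-day libraries from their group means correlated at -0.3 to 0.549. DESeq2 1.42.0 served as an alternative. The tests were tried on simulated data with known changes. Figures and tables were made in Python 3.11.15.

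The members and all lists were chosen with earlier results of these data known. Values in every library were given for members past the threshold in all 3 lines or in the test between lines and for the 3 largest rises and 3 largest falls past it in each line. Up to 8 other pathway genes were eligible by their averaged effect, and not all of them are reported here. Gene positions and overlaps were taken from GENCODE on GRCm38 and promoters from RefSeq on GRCm38.p6. Alternatives covered scaling, filters, the block, each line alone, day 7 and leaving out each day or a doubted pair.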

Additional observations from a re-analysis of the deposited data

Results flagged for a closer look

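Single libraries stood apart from the other 3 of their group for 6 of 216 groups of 4 libraries, by a gap to the nearest library that exceeded Dixon's 95% critical share of the range of the group. Chance flags about 1 in 20 groups. Lss (131 CPM) and Sqle (209.5 CPM) were highest in the EA1 DMSO library of day 2. Srebf2 (412 CPM) and Hsd17b7 (73.4 CPM) were highest in the EA2 alectinib library of day 5. Dhcr7 was lowest in the EA3 DMSO library of day 5, at 16.3 CPM, and Elovl5 highest in the EA3 DMSO library of day 3, at 165 CPM.

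The alectinib effect differed between the lines in edgeR's interaction test for 7 genes, with adjusted p of 0.0368 for Hmgcs1, 0.0265 for Tm7sf2, 0.00359 for Acly, 0.0254 for Fasn, 0.0366 for Fads3, 8.4e-05 for Elovl5 and 0.0267 for Stard4. Dropping 1 day at a time gave 1 to 9 such genes.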

How the results depend on the processing

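Leaving out each day in turn gave 1 to 4 lower and 1 to 5 higher genes in EA1, 13 to 26 lower and 1 to 2 higher in EA2, 5 to 12 lower and 0 to 1 higher in EA3, 17 to 24 lower for the averaged effect, 1 to 9 that differed between lines, 0 to 3 with a slope and 9 to 16 that differed in DMSO. Without the replicate block, which left the pairing by day unused, 0, 16 and 3 genes were lower in EA1, EA2 and EA3 and 2 differed between lines, and 16 of 28 calls of named genes were kept. DESeq2 gave 5 lower genes in EA1, 15 that differed between lines and 5 slopes. With DESeq2 size factors 4 genes were lower in EA1, and with library size alone 1 was. Without a filter 5 were lower in EA1, 21 differed between lines and 1 was higher for the averaged effect. Each line fitted alone left 6 lower genes in EA3, beside 1540 of the 12522 genes tested there. With all 26 libraries, which adds the day 7 pair that is labelled EA3 but resembles EA2, 2 genes were higher in EA1, 1 was higher in EA2, 4 were lower in EA3 and 3 differed between lines. Chosen after seeing the data, leaving out the EA1 pair of day 3 gave 2 higher genes in EA1, beside 1707 of 14569 genes tested. Leaving out the EA3 pair of day 5 gave 4 lower genes in EA3, beside 1570 of 14564 genes tested.

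Among the 45 values of named genes run under the alternatives, the signs that turned were of values that had not passed. Fasn in EA1 was 0.029 with library size alone, and with all 26 libraries Hmgcs1 and Me1 in the libraries labelled EA3 were 0.040 and 0.029. Leaving out each day in turn in EA1 gave Fads3 from -0.038 to 0.58, Fasn from -0.26 to 0.15, Stard4 from -0.029 to 0.73 and Tm7sf2 from -0.61 to 0.080, with Tm7sf2 at 0.057 without day 2. The cause was not tested. Low counts limit Tm7sf2 and Fdps most, with 6 and 19 reads in their lowest EA2 libraries.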

Other observations

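The pair of libraries labelled EA3 of day 7 entered no fit but the alternative with all 26 libraries, and its own values are given here. It went against its label, and whether the labels were exchanged was not tested. Its DMSO library correlated across genes at 0.952 to 0.979 with EA2 DMSO libraries and at 0.883 to 0.911 with EA3 DMSO libraries. Its alectinib library correlated at 0.965 to 0.989 with EA2 alectinib libraries and at 0.879 to 0.898 with EA3 alectinib libraries. The correlations are over genes, which are not independent replicates. In this 1 pair the median log2 ratio of alectinib to DMSO was 1.75 for the sterol arm, with 17 of 18 genes above 0, and 0.76 for the fatty acid arm, with 9 of 14 above 0.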
